A study of Mus musculus with 2 samples.

Results

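The 2-cell-stage genes of the Zscan4 program were described in mouse embryonic stem cells (mESCs) that lack functional Dicer. The 9 genes, Zscan4c, Zscan4d, Zscan4f, Tcstv1, Tcstv3, Zfp352, AF067061, Tdpoz3 and Tdpoz4, were chosen by symbol, and each had a row among the 43629 Ensembl genes in the count files. PolyA RNA of Dicer_KO mESCs gave 2 libraries, which the labels place at passage 7 (replicate 1) and passage 4 (replicate 2). Both carry a Dicer knockout on the 129/Ola background, in cells of blastocyst origin. According to the methods of the study, the cells derive from the E14TG2a line, were edited with paired CRISPR/Cas9 guides that delete a stretch of Dicer1, and grew from single sorted cells, with a pair of independent deletions in all. The labels do not say which deletion a library carries, so deletion, clone, passage and library cannot be told apart here. WT libraries were not analysed here, so the values below are levels in Dicer_KO mESCs and differences between 2 Dicer_KO libraries, with no test of the effect of Dicer loss and no p-value. Dicer1 itself, which encodes the RNase III enzyme that cuts miRNA precursors, had 1343 counts in replicate 1 and 1510 in replicate 2. Its count covers the whole gene, including what lies outside the deletion, and does not check the labels without WT cells.

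The members are known as transcripts of the mouse embryo at the 2-cell stage, when the zygotic genome is first transcribed in earnest. In cultures of mESCs the same transcripts appear in a small and changing minority of cells that pass in and out of this state, in which the homeodomain factor DUX activates many of the genes. ZSCAN4 proteins carry a SCAN domain and zinc fingers and are known for their part in telomere maintenance, Zfp352 encodes another zinc finger protein, the Tdpoz genes encode proteins with TRAF and BTB/POZ domains, and the Tcstv genes are named after the 2-cell-stage variable group of transcripts. Most belong to tandem families of near-identical genes. In bulk RNA, fewer cells in the state and less RNA per cell cannot be told apart.

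The genes lay in 4 regions of the genome (GRCm38). Zscan4c (ENSMUSG00000054272, chr7:11005745-11010547, plus strand), Zscan4d (ENSMUSG00000090714, chr7:11161374-11166159, minus strand) and Zscan4f (ENSMUSG00000070828, chr7:11397915-11402318, plus strand) stood in a cluster that spanned 502 kb together with Zscan4b and Zscan4e. Tcstv1 (ENSMUSG00000096284, chr13:119893388-119894785, minus strand), AF067061 (ENSMUSG00000095071, chr13:120263114-120264517, plus strand) and Tcstv3 (ENSMUSG00000095821, chr13:120316878-120318178, plus strand) lay within 425 kb, with Gm20767 between them. Tdpoz4 (ENSMUSG00000060256, chr3:93796398-93797510) and Tdpoz3 (ENSMUSG00000058005, chr3:93826020-93827117) were neighbours on the plus strand of chromosome 3. Zfp352 (ENSMUSG00000070902, chr4:90218820-90225702, plus strand) stood alone on chromosome 4. In the GENCODE M21 annotation each Zscan4 member had 4 exons, of which 3 were coding, and a coding sequence of 1518 bases without the stop codon. The Tcstv genes, AF067061 and Zfp352 had 2 exons with 1 coding exon, and Tdpoz3 and Tdpoz4 had a single exon. No exon of a member overlapped another annotated gene.

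The Zscan4 promoters are shown because the 3 members are almost the same upstream of their start sites. By the counts, the ratio of Zscan4d between the libraries differed from those of Zscan4c and Zscan4f, whose intervals overlapped. Those intervals cover counting error only, and which copy the reads came from is uncertain. A difference in the output of these promoters is thus not established. The sequences are from RefSeq (GRCm38.p6), 5′ to 3′, with the letters TGATTCAA and the TATA element (TATAAA, or TATATAA in AF067061) in capitals. Zscan4b is included as a family member without TGATTCAA.
Zscan4c promoter, chr7:11005557-11005706, plus strand: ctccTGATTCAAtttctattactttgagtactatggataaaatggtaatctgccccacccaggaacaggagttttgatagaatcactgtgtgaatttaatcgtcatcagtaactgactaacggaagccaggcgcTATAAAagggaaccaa
Zscan4f promoter, chr7:11397750-11397899, plus strand: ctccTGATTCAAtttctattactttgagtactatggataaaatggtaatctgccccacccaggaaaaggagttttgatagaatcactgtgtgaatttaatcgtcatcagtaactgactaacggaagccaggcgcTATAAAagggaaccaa
Zscan4d promoter, chr7:11166198-11166347, minus strand: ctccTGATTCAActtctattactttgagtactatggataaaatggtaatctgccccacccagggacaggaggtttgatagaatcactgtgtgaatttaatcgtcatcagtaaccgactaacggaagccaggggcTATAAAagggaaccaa
Zscan4b promoter, chr7:10905066-10905215, minus strand: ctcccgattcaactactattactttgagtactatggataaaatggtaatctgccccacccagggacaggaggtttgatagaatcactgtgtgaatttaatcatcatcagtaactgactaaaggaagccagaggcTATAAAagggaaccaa
AF067061 promoter, chr13:120262904-120263053, plus strand: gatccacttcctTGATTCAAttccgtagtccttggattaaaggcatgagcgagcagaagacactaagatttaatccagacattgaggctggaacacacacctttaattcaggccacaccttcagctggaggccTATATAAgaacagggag
In Zscan4c, Zscan4d and Zscan4f the gap between TGATTCAA and the TATA element was 122 bases, and in AF067061 it was 113 bases. Over the aligned part of the 250 bases before the RefSeq start, the promoters of Zscan4c and Zscan4f were 99.6% identical, those of Zscan4c and Zscan4d 97.1%, and those of Zscan4d and Zscan4f 96.8%. Both strands of the 250 bases before each start were searched for these letters, which were picked after the sequences had been read. TGATTCAA occurred in 0.539% of the 32851 promoters in the table, TATAAA in 12.4% and TATATAA in 3.04%. The word TGCACAC was also searched, and occurred in 3.67% of all promoters and in no window of a member. The windows of Zfp352 and Tdpoz4 held none of the 4 words, which says only that these letters are not there. A match is a description of letters and was not tested for function.

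Coding sequences are shown because they decide whether a read can be given to 1 gene. Below are bases 1003 to 1122 of the Zscan4 coding sequences, counted from the first base of the start codon, from the GENCODE M21 transcripts (GRCm38). Capitals mark bases that differ from Zscan4c.
Zscan4c: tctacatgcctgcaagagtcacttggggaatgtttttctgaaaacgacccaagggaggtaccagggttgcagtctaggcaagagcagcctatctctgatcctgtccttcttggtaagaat
Zscan4f: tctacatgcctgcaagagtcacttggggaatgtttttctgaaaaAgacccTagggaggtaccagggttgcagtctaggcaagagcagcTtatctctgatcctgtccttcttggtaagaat
Zscan4d: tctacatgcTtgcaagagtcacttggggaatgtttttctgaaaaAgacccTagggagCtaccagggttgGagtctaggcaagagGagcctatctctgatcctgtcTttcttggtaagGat
In this window Zscan4f differed from Zscan4c at 3 bases and Zscan4d at 8. Over the whole coding sequence Zscan4c and Zscan4f differed at 6 of 1518 bases (99.6% identity), and Zscan4d differed from Zscan4c at 35 (97.7%).

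The Tcstv genes are shown as bases 343 to 462 of the coding sequence, with capitals where a base differs from Tcstv3. The window of Gm20767 is bases 337 to 456.
Tcstv3: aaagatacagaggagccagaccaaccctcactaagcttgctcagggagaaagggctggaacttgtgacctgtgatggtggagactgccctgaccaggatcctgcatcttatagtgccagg
Tcstv1: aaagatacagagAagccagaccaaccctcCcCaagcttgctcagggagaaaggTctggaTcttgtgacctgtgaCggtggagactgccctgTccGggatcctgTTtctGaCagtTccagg
AF067061: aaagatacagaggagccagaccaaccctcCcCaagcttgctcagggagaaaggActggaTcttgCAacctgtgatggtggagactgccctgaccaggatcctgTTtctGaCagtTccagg
Gm20767: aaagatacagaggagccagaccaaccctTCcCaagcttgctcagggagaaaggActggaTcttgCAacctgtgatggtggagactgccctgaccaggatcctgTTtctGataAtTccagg
Tcstv1 was 94.5% identical to Tcstv3 over the coding sequence, AF067061 was 95.9% identical to it, and AF067061 and Gm20767 were 96.6% identical. The differing bases were spread along the window in each pair.

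The Tdpoz members had diverged further, as bases 415 to 534 of their coding sequences show, with capitals where Tdpoz4 differs from Tdpoz3.
Tdpoz3: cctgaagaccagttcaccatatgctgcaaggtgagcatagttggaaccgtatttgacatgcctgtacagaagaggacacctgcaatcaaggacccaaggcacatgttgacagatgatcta
Tdpoz4: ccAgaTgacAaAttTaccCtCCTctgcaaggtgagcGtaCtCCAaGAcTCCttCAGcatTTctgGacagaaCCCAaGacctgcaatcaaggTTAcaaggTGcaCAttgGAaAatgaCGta
In this window 42 bases differed, and over the coding sequence the identity was 79.2%. Tdpoz4 was closer to Gm4858, with 94.2% identity.

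The extent of this likeness was measured as the share of each member's 50-base runs that also occur, on the same strand, in an annotated transcript of another gene. Zscan4f shared 95.3% of its runs, Zscan4c 85.5%, Tdpoz3 66.2%, Zscan4d 49.6% and Tdpoz4 41.2%. Tcstv3 shared 31.4%, AF067061 22.6%, Tcstv1 16.8% and Zfp352 7.09%. Runs of 100 bases lowered every share, to 89.5% for Zscan4f, 29.6% for Zscan4d and 0 for AF067061. For Zscan4c and Zscan4f the largest share was with the annotated copy Zscan4-ps2, at 71.4% and 84.7% of their runs. That copy had no row under its M21 identifier. The genes with a row together shared 72.3% of the runs of Zscan4c and 87.6% of those of Zscan4f. How reads with several alignments were counted is not stated, so the counts of the Zscan4 genes and Tdpoz3 are uncertain as to which copy they came from, while Zfp352 and AF067061 shared the least with runs of 100 bases, at 0.643% and 0. The read length is not stated either.

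**Figure D1:**
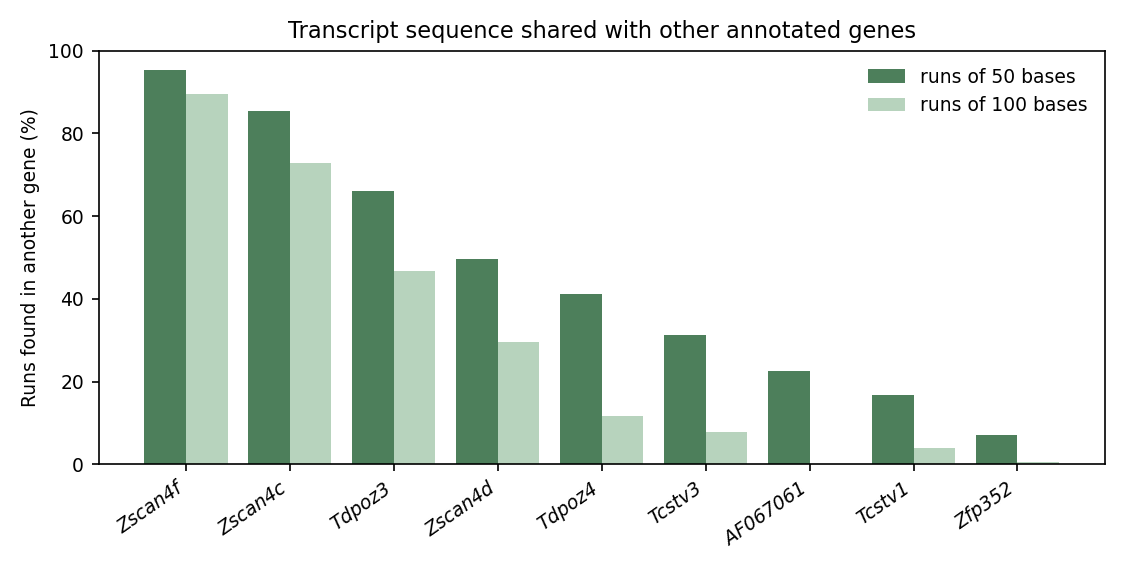
Share of each member's transcript, in percent of runs on the vertical axis, that is also found in another annotated gene, for runs of 50 bases (dark bars) and 100 bases (light bars). Zscan4f and Zscan4c share most of their sequence, and Zfp352 shares 7.09%.

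All 9 members were detected in both libraries. The levels that follow are counts scaled to a common library size (CPM, counts per 1000000) after scaling by the trimmed mean of M values (TMM), with exact Poisson 95% intervals for counting error only, and each mean is over the 2 libraries with its SD (n = 2). Nothing says that the libraries came from separate cultures of 1 line, so the SD holds clone and passage as well as technical spread. The libraries held 41710122 and 41566184 counts on genes, at which 3 counts amount to 0.0691 and 0.0752 CPM.

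The Zscan4 genes had the most counts. Zscan4c, the copy best known from mESCs, had 2671 counts in replicate 1, or 61.5 CPM (59.2 to 63.9), and 1697 in replicate 2, or 42.5 CPM (40.5 to 44.6). Zscan4d, the copy best known from the 2-cell embryo, had 2083 counts in replicate 1 and 1943 in replicate 2, which gave 48.0 CPM (45.9 to 50.1) and 48.7 CPM (46.5 to 50.9). Zscan4f had 1198 and 827 counts, or 27.6 CPM (26.0 to 29.2) in replicate 1 and 20.7 CPM (19.3 to 22.2) in replicate 2. Zscan4c and Zscan4f were thus higher in replicate 1, with intervals that did not overlap, while Zscan4d was level. The means were 52.0 ± 13.4 CPM for Zscan4c, 48.3 ± 0.52 CPM for Zscan4d and 24.1 ± 4.85 CPM for Zscan4f (SD, n = 2).

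Tcstv3 and AF067061 were the members with the largest folds between the libraries. Tcstv3 had 429 counts in replicate 1, or 9.88 CPM (8.96 to 10.9), and 165 in replicate 2, or 4.13 CPM (3.53 to 4.82). AF067061, which is close to Tcstv3 in coding sequence, had 254 and 111 counts, or 5.85 CPM (5.15 to 6.61) and 2.78 CPM (2.29 to 3.35). Both were higher in replicate 1, and neither pair of intervals overlapped. Tcstv1 was near the limit of counting, with 15 counts in replicate 1 and 12 in replicate 2, or 0.345 CPM (0.193 to 0.57) and 0.301 CPM (0.155 to 0.525). Of its 50-base runs, 83.2% occurred in no other annotated gene, a larger share than in any Zscan4 or Tdpoz member. The means were 7.00 ± 4.06 CPM for Tcstv3, 4.31 ± 2.17 CPM for AF067061 and 0.323 ± 0.032 CPM for Tcstv1 (SD, n = 2).

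Tdpoz3 had 452 counts in replicate 1 and 243 in replicate 2, or 10.4 CPM (9.47 to 11.4) and 6.09 CPM (5.35 to 6.90). Its neighbour Tdpoz4 had 293 and 224 counts, or 6.74 CPM (5.99 to 7.56) and 5.61 CPM (4.90 to 6.40), and these intervals overlapped. Zfp352, the member with the smallest share of 50-base runs in other genes, had 354 counts in replicate 1 and 248 in replicate 2, or 8.15 CPM (7.32 to 9.04) and 6.21 CPM (5.46 to 7.04). Tdpoz3 and Zfp352 were therefore higher in replicate 1 beyond counting error. Their means were 8.25 ± 3.05 CPM and 7.18 ± 1.37 CPM, and that of Tdpoz4 was 6.18 ± 0.80 CPM (SD, n = 2).

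**Figure D2:**
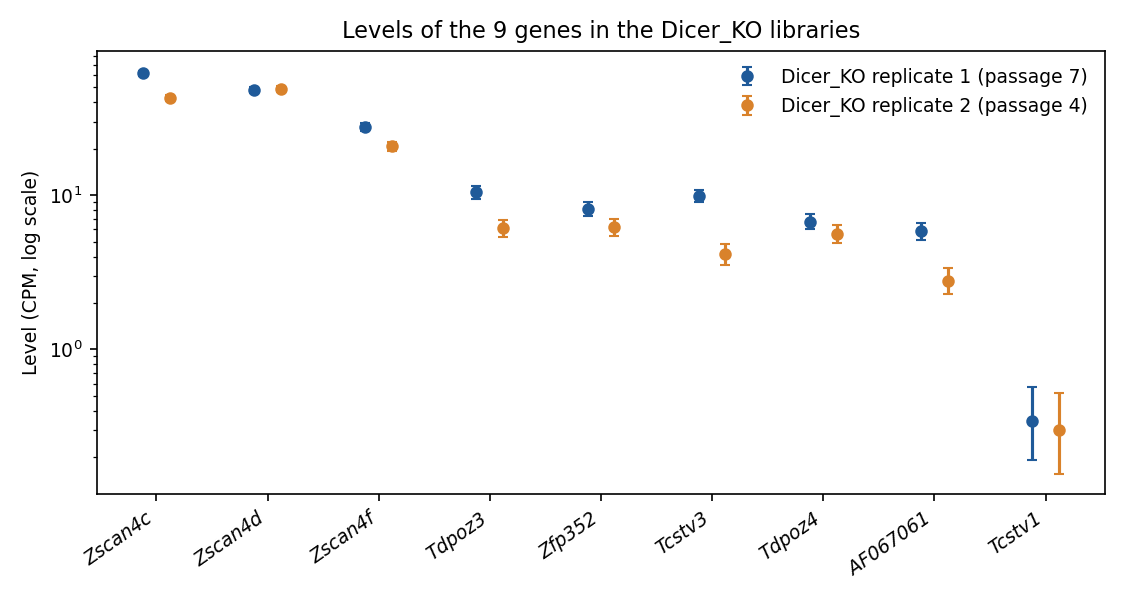
Level of each member in CPM on a log axis, in replicate 1 (blue) and replicate 2 (orange), with exact Poisson 95% intervals. Zscan4c, Zscan4d and Zscan4f lie between 20.7 and 61.5 CPM, and Tcstv1 at 0.345 and 0.301 CPM, a scale that is not corrected for gene length.

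Levels of different genes were compared per length, as CPM per kilobase of exon (RPKM). The order of the mean RPKM was Zscan4c at 22.8 ± 5.89, Zscan4d at 21.3 ± 0.23, Zscan4f at 12.3 ± 2.48, Tcstv3 at 8.99 ± 5.21, Tdpoz3 at 7.51 ± 2.78, Tdpoz4 at 5.55 ± 0.72, Zfp352 at 3.16 ± 0.60, AF067061 at 3.07 ± 1.54 and Tcstv1 at 0.231 ± 0.023 (SD, n = 2). Zscan4c and Zscan4d did not differ beyond their spread, nor did neighbours from Zscan4f down to Tdpoz4, nor Zfp352 and AF067061. The steps from Zscan4d to Zscan4f, from Tdpoz4 to Zfp352 and from AF067061 to Tcstv1 were larger than the range of the 2 libraries. RPKM divides by the whole exon length, shared sequence included. Only 4.66% of the 50-base runs of Zscan4f occurred in no other gene, against 50.4% for Zscan4d and 92.9% for Zfp352. How shared reads were counted is not stated. In the order, the steps and the percentiles, level and countable sequence therefore cannot be told apart. Ranked by RPKM within each library, against genes of known length that averaged 10 or more counts, Zscan4c stood at percentile 88.3 in replicate 1 and 81.0 in replicate 2. Zscan4d stood at 84.4 and 83.5. Zfp352, with percentiles of 45.6 and 42.8, lay just under the median, and Tcstv1, with 11.0 and 11.9, was among the lowest.

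The libraries were then set against each other. A ratio is given as the log2 ratio of replicate 1 over replicate 2 after TMM scaling with a pseudocount of 1, and its interval is the exact 95% interval of the fold from the counts, without pseudocount. Over the 17788 genes that averaged 10 or more counts, the median log2 ratio was 0.02, and the middle 90% of genes lay between -1.23 and 1.86. All 9 members passed that filter, and 8 had a higher normalized count in replicate 1 (9 with total counts in place of TMM), against 51.3% of all genes tested. The fold was beyond 2 in replicate 1's favour for 2 members, Tcstv3 and AF067061, against 14.2% of all genes, and no member was beyond 2-fold higher in replicate 2, against 7.14%. The median log2 ratio over the members was 0.41. Members of the same family may share reads, so the 9 genes are not separate observations in these counts of members.

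Tcstv3 had the highest log2 ratio of the members, 1.25, a 2.39-fold difference (1.99 to 2.88), and 10.7% of all genes had a higher one. AF067061 followed with 1.07, a 2.10-fold difference (1.68 to 2.65), and Tdpoz3 with 0.77, or 1.71-fold (1.46 to 2.01). Zscan4c at 0.53 was 1.45-fold higher in replicate 1 (1.36 to 1.54), which 25.2% of all genes exceeded. The intervals of Zscan4f (0.41, 1.22 to 1.46 in fold), Zfp352 (0.39, 1.11 to 1.55) and Tdpoz4 (0.26, 1.01 to 1.44) also lay above 1. Zscan4d had a log2 ratio of -0.02, with a fold of 0.985 (0.925 to 1.05). For Tcstv1 the log2 ratio of 0.19 had an interval in fold of 0.502 to 2.69, and no difference was detectable at this depth. Over the 9 genes, which may share reads within a family and are not separate observations, 7 intervals lay above 1 and 0 below. Over all genes tested the shares were 37.8% above and 35.4% below. Zfp352, which shared 7.09% of its runs with other genes, was among the 7. The 9 genes together had 7749 counts in replicate 1 and 5470 in replicate 2, or 178 and 137 CPM, a 1.30-fold difference, and Zscan4c and Zscan4d made up the largest parts of either sum. The library with the higher levels also had the higher summed level of 5 trophoblast markers, 76.3 against 5.56 CPM. The sum of 10 mESC markers was higher there too, 9215 against 6395 CPM. The part of either list in this was not tested.

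**Figure D3:**
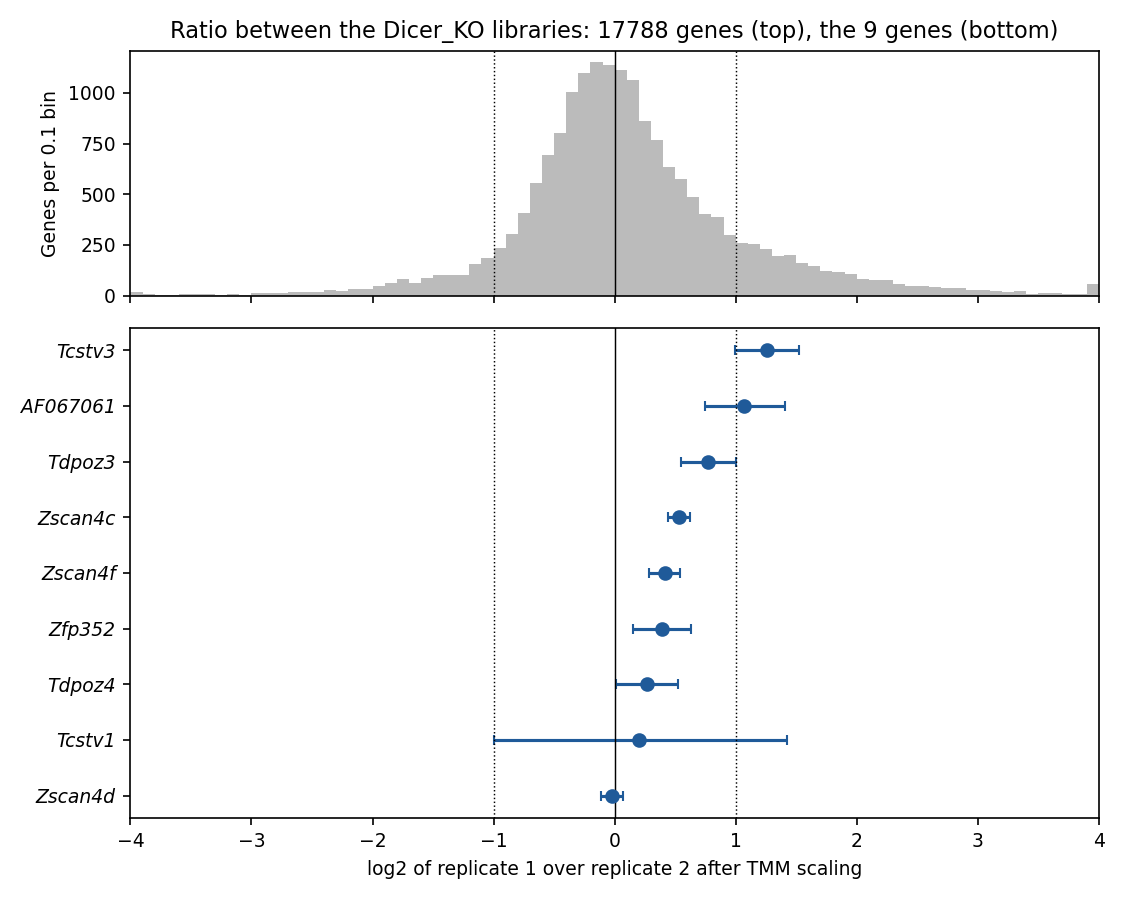
The top panel shows how many of the 17788 genes fall in each bin of the log2 ratio of replicate 1 over replicate 2 (pseudocount of 1, values beyond 4 placed at the edge). The bottom panel shows each member's log2 ratio without pseudocount with its exact 95% counting interval, and solid and dotted lines stand at equality and at 2-fold. Tcstv3 and AF067061 lie past the 2-fold line, and Zscan4d lies at equality.

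Shares within a family do not depend on any scaling between the libraries. The 5 Zscan4 genes with a row held 7692 counts in replicate 1 and 5855 in replicate 2. Zscan4c took 34.7% of them in replicate 1 (exact binomial 95% interval 33.7 to 35.8) and 29.0% in replicate 2 (27.8 to 30.2). Zscan4d took 27.1% (26.1 to 28.1) and 33.2% (32.0 to 34.4). By these counts the leading copy was Zscan4c in replicate 1 and Zscan4d in replicate 2, and for both genes the intervals did not overlap. Those intervals cover counting error only. Which copy the reads came from is uncertain, so a change of the leading copy is not established. Zscan4f, with 15.6% (14.8 to 16.4) and 14.1% (13.2 to 15.0), and Zscan4e, with 16.1% and 16.0%, moved less, and Zscan4b held 6.53% and 7.69%. Zscan4e had 1238 and 938 counts and Zscan4b 502 and 450, so that Zscan4b, like Zscan4d, was level between the libraries, with a log2 ratio of 0.04.

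In the Tcstv family the intervals of the shares overlapped between the libraries, although the total differed. The 4 genes held 1825 counts in replicate 1 and 729 in replicate 2, or 42.0 and 18.3 CPM, a 2.30-fold difference (2.11 to 2.51). Of these 4 genes, which were set by name, Gm20767 led with 61.8% in replicate 1 and 60.5% in replicate 2. The shares leave out Gm21761 and Gm21818, given below, and Gm21761 alone had more counts than the 4 genes together in either library. Tcstv3 held 23.5% (21.6 to 25.5) and 22.6% (19.6 to 25.8), and AF067061 held 13.9% (12.4 to 15.6) and 15.2% (12.7 to 18.0). Tcstv1 held 0.822% and 1.65%, with intervals of 0.461 to 1.35 and 0.853 to 2.86. The counts of Tcstv1 are too few to say whether its share changed. Gm20767 had 1127 and 441 counts and a log2 ratio of 1.23. Outside the 4 genes set by name, Gm21761 shared most sequence with Gm20767, and Gm21818 with Tcstv3. Their log2 ratios were similar, 0.98 for Gm21761 with 4794 and 2226 counts, and 1.24 for Gm21818 with 687 and 266. Gm21761 shared 60.8% of the 50-base runs of Gm20767, and Gm21818 shared 19.0% of those of Tcstv3. These copies were singled out by their shared sequence and share reads with the 4 genes to an unknown degree.

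The 7 genes set by name as the Tdpoz family held 1164 counts in replicate 1 and 758 in replicate 2, a 1.41-fold difference (1.29 to 1.55). Tdpoz3 took 38.83% of them in replicate 1 (36.0 to 41.7) and 32.1% in replicate 2 (28.7 to 35.5), and Tdpoz4 took 25.2% (22.7 to 27.8) and 29.6% (26.3 to 32.9). Gm4778 had 261 and 201 counts, Gm4858 had 135 and 65, Tdpoz1 had 12 and 19 and Tdpoz2 had 11 and 6. Tdpoz5 had 0 counts in both libraries, but all of its 50-base runs also occur in other genes, so that its count sets no limit on its level. Most counts of these 7 genes thus fell on Tdpoz3, Tdpoz4 and Gm4778. The total and the shares leave out other copies. Among them, Gm4982 had 63 and 38 counts and shared 66.2% of the 50-base runs of Tdpoz3. Gm5541 had 121 and 60 counts and shared 31.0% of those of Tdpoz4. Zfp353-ps, the pseudogene closest to Zfp352, had 23 and 18 counts, far fewer than Zfp352.

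**Figure D4:**
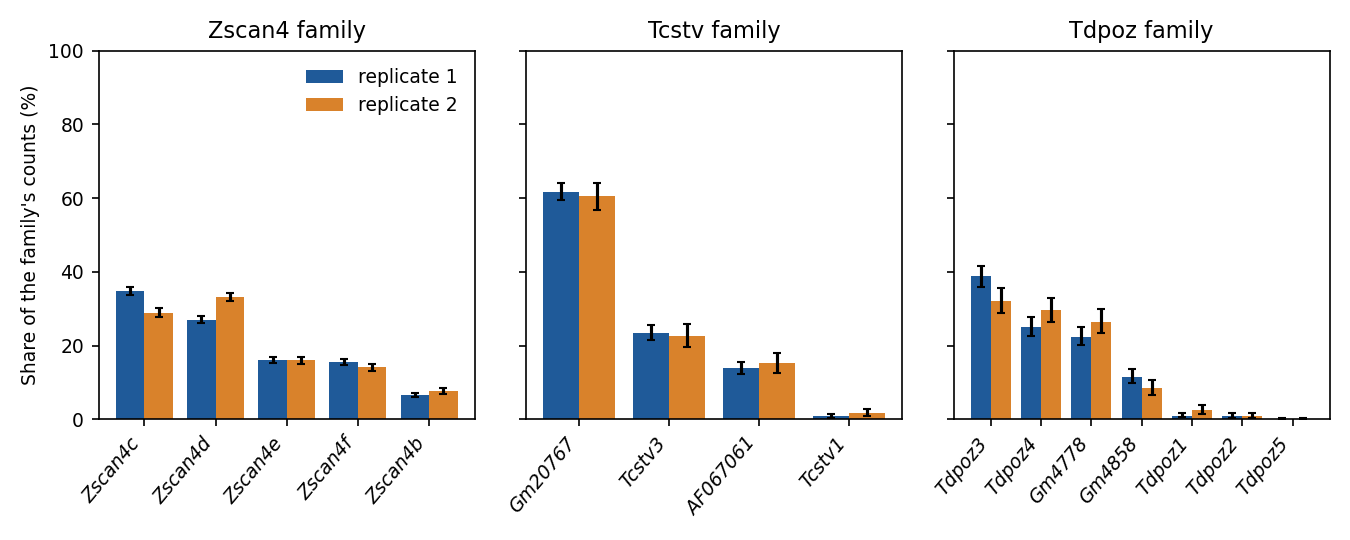
Bars give each gene's share, in percent, of the counts of its family, as set by name, in replicate 1 (blue) and replicate 2 (orange). Whiskers are exact binomial 95% intervals. By these counts, whose copy of origin is uncertain, the order of Zscan4c and Zscan4d changes between the libraries, from 34.7% and 27.1% to 29.0% and 33.2%. The intervals overlap for each Tcstv gene.

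Other transcripts of the 2-cell-stage state were described from a list, of which 21 genes had a row. Of these, 20 had a higher normalized count in replicate 1, against 51.3% of all genes tested, 13 were beyond 2-fold, against 14.2%, and the median log2 ratio was 1.15, against 0.41 for the 9 members. The Eif1a-like genes on chromosome 12, relatives of a translation initiation factor gene, were beyond 2-fold higher in replicate 1 in 10 of 10 cases and summed to 347 CPM in replicate 1 and 149 CPM in replicate 2. Gm5662 had the most counts, 4019 and 1659, and these genes too form a multigene family. Of their 50-base runs, Gm8332 shared 100% with other genes, Gm4027 94.4% and Gm2016 81.3%, while Gm8300 shared 26.6% and Gm5039 17.3%. The 10 genes, which are among the 13 beyond 2-fold, may thus share reads and are not separate observations. The 5 Usp17l genes, which encode deubiquitinases, were all higher in replicate 1, with log2 ratios between 0.57 and 1.10 and sums of 93.7 and 50.5 CPM. Of the remaining 6 genes, Gm8994 had 2051 and 750 counts and Tmem92 had 768 and 241, whereas Zscan5b, with 1107 and 982, and Arg2, with 214 and 237, were near level. Of the 9 members, Tcstv3 lay in the range of the Eif1a-like genes, from 1.08 to 1.71, the other 8 lay below the list median, and the difference between the lists was not tested.

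Genes known to act on the program differed in direction. Among the activators, Duxf3, which encodes DUX, had 58 counts in replicate 1 and 12 in replicate 2, a log2 ratio of 2.07 and a 4.44-fold difference (2.36 to 9.09), at 1.34 and 0.301 CPM. Dppa2 and Dppa4, which encode chromatin proteins that act upstream of Dux, were lower in replicate 1. Dppa2 had 5060 and 5902 counts (log2 ratio -0.34) and Dppa4 had 4927 and 7180 (-0.67). Nelfa, which encodes a subunit of the negative elongation factor, had 5333 and 3678 counts and a log2 ratio of 0.41. Duxf3 and Nelfa thus had the direction of most members. The estimated fold of Duxf3 was above that of any member, but its interval overlapped those of Tcstv3 (1.99 to 2.88) and AF067061 (1.68 to 2.65). Per length Duxf3 had 0.495 and 0.111 RPKM, which lay below the 8 members other than Tcstv1 in either library. The sequence that Duxf3 shares with other genes was not measured.

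The repressors were mostly higher in replicate 2, where most members were lower. Of 18 genes listed, 17 had a higher normalized count in replicate 2, against 48.7% of all genes tested, and 2 of them were beyond 2-fold, against 7.14%. The median log2 ratio was -0.41. Lin28a, which encodes an RNA-binding protein, had 603 and 1733 counts (log2 ratio -1.64), and Ncl, which encodes nucleolin, had 77108 and 143450 (-1.02). Trim28, the corepressor recruited by KRAB zinc finger proteins, had 43998 and 72757 counts (-0.85), and Rif1, which is known from telomeres and from late-replicating chromatin, had 25214 and 41813 (-0.85). Mga and Zfp42 had log2 ratios of -0.56 and -0.32, and Max, with 0.01, was level. Of 6 genes whose proteins are known to act with ZSCAN4, all had a higher normalized count in replicate 2, with log2 ratios from -0.85 to -0.19. Rif1 and Kdm1a are on both lists. Their part in the members' levels was not tested.

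**Figure D5:**
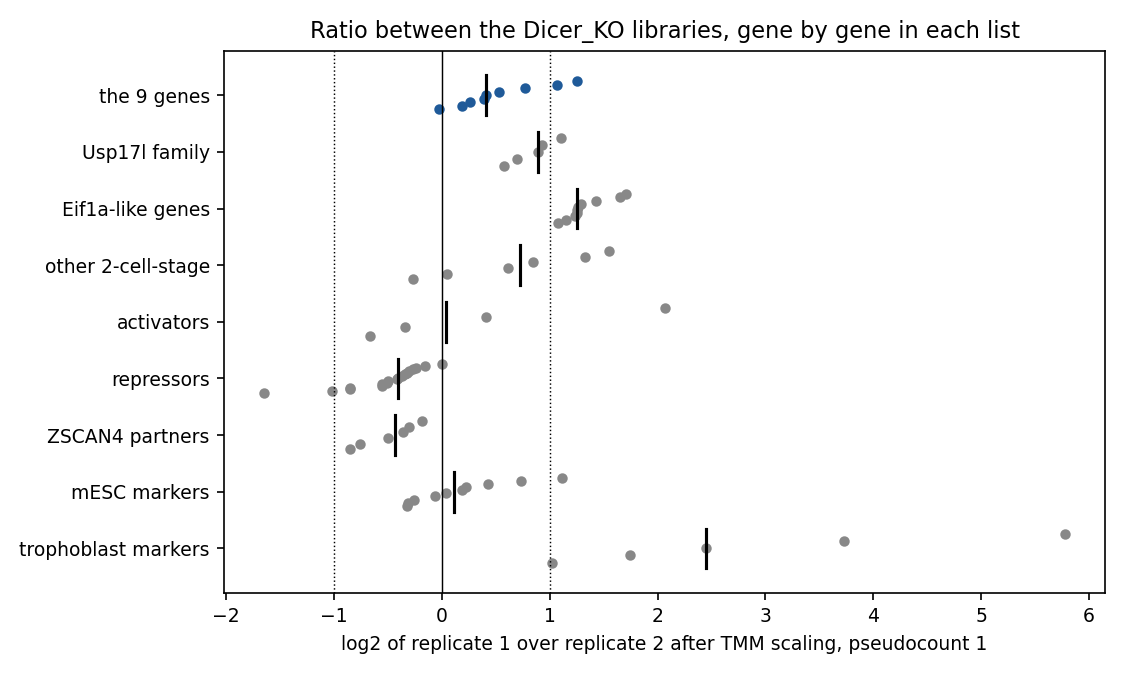
Log2 ratio of replicate 1 over replicate 2 (TMM scaling, pseudocount of 1) for each gene of a list, 1 point a gene, with the list median as a vertical bar and dotted lines at 2-fold. The 9 members (blue) lie between -0.02 and 1.25, the Eif1a-like genes are all past 2-fold, and 17 of 18 repressors lie below 0.

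The cells carried the markers of mESCs in both libraries, with 39069 and 43025 counts of Pou5f1 and 26499 and 21353 of Sox2. All 10 mESC markers were detected, and their median log2 ratio was 0.12. Of them, 6 had a higher normalized count in replicate 1, against 51.3% of all genes tested, and 4 in replicate 2. Dppa5a, with 199860 and 84835 counts, was the only 1 beyond 2-fold, and Nanog had 47522 and 26215. The 10 markers summed to 9215 CPM in replicate 1 and 6395 CPM in replicate 2. Markers of fibroblasts, which can serve as feeder cells, were low for collagens, with 20 and 18 counts of Col1a1, 6 and 1 of Col1a2 and 1 and 0 of Col3a1. Thy1 had 823 and 621, and Pdgfrb had 285 and 91, a 2.88-fold difference (2.27 to 3.68) in the direction of most members. Acta2 went the other way, with few counts, 1 and 11, and an interval of the fold below 1 (0.00194 to 0.575). Trophoblast markers were also higher in replicate 1, as were most members. Of 5 genes, 4 had a mean of 10 or more counts, and each of these was beyond 2-fold higher in replicate 1 with an interval above 1. None of the 5 was at 0, and they summed to 76.3 CPM in replicate 1 and 5.56 CPM in replicate 2, most of it from Krt7 with 2674 and 44 counts, while Eomes had 334 and 151, Hand1 229 and 15, Elf5 70 and 11 and Cdx2, too low to compare, 6 and 1. Primitive endoderm markers summed to 14.5 and 8.47 CPM, led by Gata4 with 586 and 318 counts. The part of these marker lists in the difference between the libraries was not tested. Tcstv3, AF067061, Tdpoz3 and Duxf3 were thus higher in the library of the later passage. That library also had the higher sums of mESC, trophoblast and primitive endoderm markers. Zscan4d was level, and Dppa2 and Dppa4 were lower in that library.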

How the data were processed

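According to the study's methods, polyA RNA was made into stranded TruSeq libraries and sequenced from both ends. After trimming by Trimmomatic, alignment used STAR (2.4.2a) on mm10 with 2 mismatches and up to 3000 multiple hits. Counting used featureCounts (1.4.5-p1) on Ensembl genes and ignored reads where genes overlap. The values the authors deposited are raw counts per gene, without normalization. How reads with several alignments were counted is not stated.

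Symbols, lengths and positions came from GENCODE M21 (GRCm38), in which 1167 of 43629 identifiers had no symbol, so gene models may differ from those used in counting. Here the counts were scaled by the TMM factors of edgeR (4.0.16, R 4.3.3), 1.041 for replicate 1 and 0.960 for replicate 2, and CPM and RPKM were computed from them. Totals were 41710122 and 41566184 counts, with at least 10 counts for 17819 and 17461 genes. Intervals are exact (Poisson, or conditional binomial for folds, scipy 1.17.1) and cover counting error only. With 1 group of 2 libraries no test was made. Sequence identity was taken from global alignments (Biopython 1.88) of coding sequences, not of proteins, and 50-base runs were looked up in all M21 transcripts. RefSeq promoters matched 6 of the 9 members, Zscan4c, Zscan4d, Zscan4f, AF067061, Zfp352 and Tdpoz4. That of Tdpoz4 starts at the coding exon and is not printed.

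The 9 members and the gene lists were chosen with earlier results of these data known. Values are given for the members, for every gene with a row of their families, as set by name, and for up to 6 genes of each list. The steps were tested on simulated data. Alternatives were DESeq2 size factors (1.42.0), total and raw counts, a pseudocount of 0.1, other count minimums and fold thresholds, another length, longer runs and each library alone.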

Additional observations from a re-analysis of the deposited data

How the results depend on the processing

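No paired analysis was possible because there is 1 group and no second group to pair with. Of 100 values recomputed under other settings, 74 kept their direction and stayed within a limit, 24 moved and 2 reversed. The limit was the SD of the libraries for levels and percentiles, and the counting interval for log2 ratios. It was the SD over the members for their median ratio. For counts and shares of genes it was a fixed fold, and for shared runs a binomial interval. The log2 ratio of Zscan4d turned from -0.02 to 0.10 with total counts and to 0.10 with raw counts. Total counts also moved the median of all genes from 0.02 to 0.14. Relative to that median Zscan4d stayed at -0.04 under every scaling. A scaling shifts all genes almost equally, so this had to be so and is no check of the ratio. With a 4-fold threshold 0 members were beyond it, in place of 2. Without a filter on low counts, 9.28% of all genes were beyond 2-fold higher in replicate 1, in place of 14.2%. The summed level of the members was 137 CPM in replicate 2 alone and 178 CPM in replicate 1 alone, around a mean of 158 ± 29.2 CPM. DESeq2 size factors and a pseudocount of 0.1 moved no value beyond its limit. Shared sequence and RPKM percentiles moved with the run length, the gene set and the length used. Depth limits Tcstv1, whose 15 and 12 counts leave its fold between 0.502 and 2.69, and a lone library of each passage limits every ratio.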
